A study of Mus musculus with 6 samples.

Results

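The 10 genes described here store triglyceride in lipid droplets or release it again, and were read in RNA of Hepa1-6, a mouse hepatoma line. They are G0s2, Pnpla2, Abhd5, Hilpda, Plin2, Plin3, Dgat1, Dgat2, Lipe and Mgll. Each was matched by its symbol, and all 10 were found among the 16217 genes of the deposited table. The set was chosen by function around G0s2 (the lipase it inhibits, droplet coats and triglyceride synthesis), and G0s2 was selected on its FPKM in these 6 libraries, whose difference between the groups was already known. The differences of the 10 genes between the groups are therefore given as a description, and no test of them is read.

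In 3 libraries the cells carried a lentiviral short hairpin RNA against Ero1a (shERO1A), an oxidase of the endoplasmic reticulum that helps to form disulfide bonds, and in 3 libraries they carried the control hairpin shNC. Both lines were stably transduced and selected with puromycin. As far as the labels say, each group is a single transduced line, so what the hairpin did and what the lines differed in otherwise cannot be told apart. Nothing says that libraries came from separate cultures, so every error and p-value covers only library-to-library spread, possibly technical. Knockdown libraries carry the names of the deposited table (KD1 to KD3).

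A lipid droplet is a core of triglyceride and sterol ester under a single layer of phospholipid, coated with proteins such as the perilipins. Triglyceride is completed by the DGAT enzymes and broken down stepwise by the lipase ATGL (gene Pnpla2), hormone-sensitive lipase (Lipe) and monoacylglycerol lipase (Mgll). ATGL is activated by CGI-58 (Abhd5) and inhibited by the small proteins G0S2 and HILPDA, and in liver this step helps to set how much stored fat is burned or secreted.

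Between 38290505 and 39646829 reads per library lie behind the values, which are in FPKM (reads scaled by gene length and library size). Ero1a itself had levels of 37.8, 39.6 and 38.4 FPKM under the control hairpin, against 15.0, 16 and 15.7 FPKM under shERO1A, so the libraries followed their labels. KD3 stood apart from the other knockdown libraries: the chi-square per degree of freedom between read counts was 63.2 against KD1 and 48.5 against KD2, where it was 6.14 between KD1 and KD2 and 4.13 to 4.65 within shNC. Between the groups, without KD3, it was 31.2 to 33.9. Results that rest on KD3 are therefore given with and without it.

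The label of the cells was checked on marker genes. Of 10 hepatocyte and hepatoma markers, Hnf4a, Trf, Foxa2 and Afp had a mean of at least 1 FPKM, with means in shNC of 41.1, 43.2, 24.0 and 3.10 FPKM. Apoa2 and Ambp were measured below 1 FPKM, with means of 0.98 and 0.177 FPKM in shNC and 0.98 and 0.0265 FPKM in shERO1A. Alb, Ttr, Apoa1 and Serpina1a, which define differentiated hepatocytes, are not among the genes analysed here. The summed level of the hepatocyte markers was 110.3 to 114 FPKM in shNC and 92.8 to 97.5 FPKM in shERO1A. Hnf4a and Trf fell (limma adjusted p = 0.00287 and 0.0326). Over the 12 alternatives to this limma fit, the adjusted p was at most 0.0227 for Hnf4a. It reached 0.129 for Trf, whose call was thus lost under some of them. Of 9 adipocyte markers, only Cidec and Fabp4 are among the genes analysed, both under 1 FPKM, with a sum of 0.535 to 0.661 FPKM in shNC and 0.817 to 1.24 FPKM in shERO1A. Markers of macrophages and other immune cells summed to at most 3.32 FPKM in any library and those of fibroblasts and stellate cells to at most 1.41 FPKM. The endothelial sum, 9.97 to 10.7 FPKM in shNC and 17.9 to 19.0 FPKM in shERO1A, came almost wholly from Cdh5, at means of 10.1 and 18.3 FPKM, while Pecam1, a defining marker, was at most 0.151 FPKM. The part of these markers in the results below was not tested. In RNA from whole cultures, fewer cells of a type and less RNA per cell cannot be told apart.

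Among the 10 genes, the inhibitor gene G0s2 differed most, at 4.28 times its control level, followed by the coat gene Plin2 at 1.53 times and the activator gene Abhd5 at 1.37 times. Pnpla2, the gene of the lipase that G0s2 and Abhd5 regulate, was nearly the same in the groups. A fit of log2(FPKM + 1) over the 10296 genes that reached a mean level of 1 FPKM (limma, Benjamini-Hochberg adjusted p under 0.05) called G0s2, Plin2 and Abhd5 higher and none of the other 6 tested genes; Mgll was too low to be tested. Over all genes tested 17.7% were called, 9.48% as higher and 8.23% as lower, and nothing is read from the count of members, since the set was chosen with this contrast known. The share over all genes changed when a library was left out. It was 9.46%, 9.28% and 9.25% without shNC replicates 1, 2 and 3, nearly the same for each, so no single shNC library stood out. It was 15.9%, 11.6% and 27.7% without KD1, KD2 and KD3. Counts of the lists below with a library left out are to be read beside these shares. The calls of G0s2, Plin2 and Abhd5 were made under each of the 12 alternatives run. These alternatives use the same libraries, whose contrast was known when the set was chosen, so this too is a description. No tested member was called lower by limma, voom or the authors' deposited table. At an unadjusted limma p under 0.05, 4 members were higher and 1, Lipe, was lower. The share of all genes at that threshold was not computed, so nothing is read from these counts. The groups did not overlap in 4 members that were higher in shERO1A and 1 that was lower, beside 21.5% and 18.5% of all genes tested, or 40.0% in either direction. The median log2 difference was 0.22 over the 9 tested members and 0.01 over all genes tested.

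G0s2 (Entrez 14373), which binds ATGL and blocks its lipase activity, had levels of 2.69, 4.0 and 4.50 FPKM under the control hairpin and reached 14.2, 16.3 and 17.4 FPKM in the libraries KD1, KD2 and KD3. Every knockdown library was above every control library by a wide margin, KD1 and KD2 included. The mean went from 3.73 ± 0.935 to 16 ± 1.58 FPKM (SD, n = 3), and without KD3 the ratio was 4.09. On the log2(FPKM + 1) scale, which understates the change of low genes, the difference was 1.86 (SE 0.14). Ordered from the largest increase, G0s2 had rank 5 among all tested genes. The control libraries were uneven: shNC replicate 1 held 88 G0s2 reads, with a 95% exact Poisson interval of 70.6 to 108, and shNC replicate 3 held 146, with an interval of 123 to 172. These intervals do not overlap, so the spread within shNC went past counting error, the only error they cover.

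Pnpla2 (Entrez 66853), which encodes ATGL and takes the first fatty acid off triglyceride, had levels of 35.5, 33.3 and 35.3 FPKM under the control hairpin, against 34.7, 32.6 and 34.7 FPKM under shERO1A. The groups overlapped, with KD2 the lowest of the 6 libraries. The log2 difference was -0.03, with a 95% interval of -0.14 to 0.08.

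Abhd5 (Entrez 67469), the coactivator of ATGL, had levels of 11.7, 10.7 and 10.8 FPKM under the control hairpin, against 14.9, 14.0 and 16.4 FPKM under shERO1A. The lowest knockdown library lay above the highest control library. The mean went from 11.1 ± 0.550 to 15.1 ± 1.19 FPKM (SD, n = 3; log2 difference 0.42, SE 0.07), and without KD3 the ratio was 1.31.

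Hilpda (Entrez 69573), a hypoxia-inducible droplet protein that also inhibits ATGL, had levels of 28.3, 26.0 and 25.5 FPKM under the control hairpin and reached 26.3, 29.9 and 38.1 FPKM in the libraries KD1, KD2 and KD3. KD1 lay within the range of the controls and KD3 far above it. The log2 difference of 0.22 (95% interval -0.06 to 0.50) was 0.08 (SE 0.06) without KD3. Of the tested members, Hilpda varied most between knockdown libraries, with a coefficient of variation of 19.3%, beside 5.67% in shNC.

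**Figure D1:**
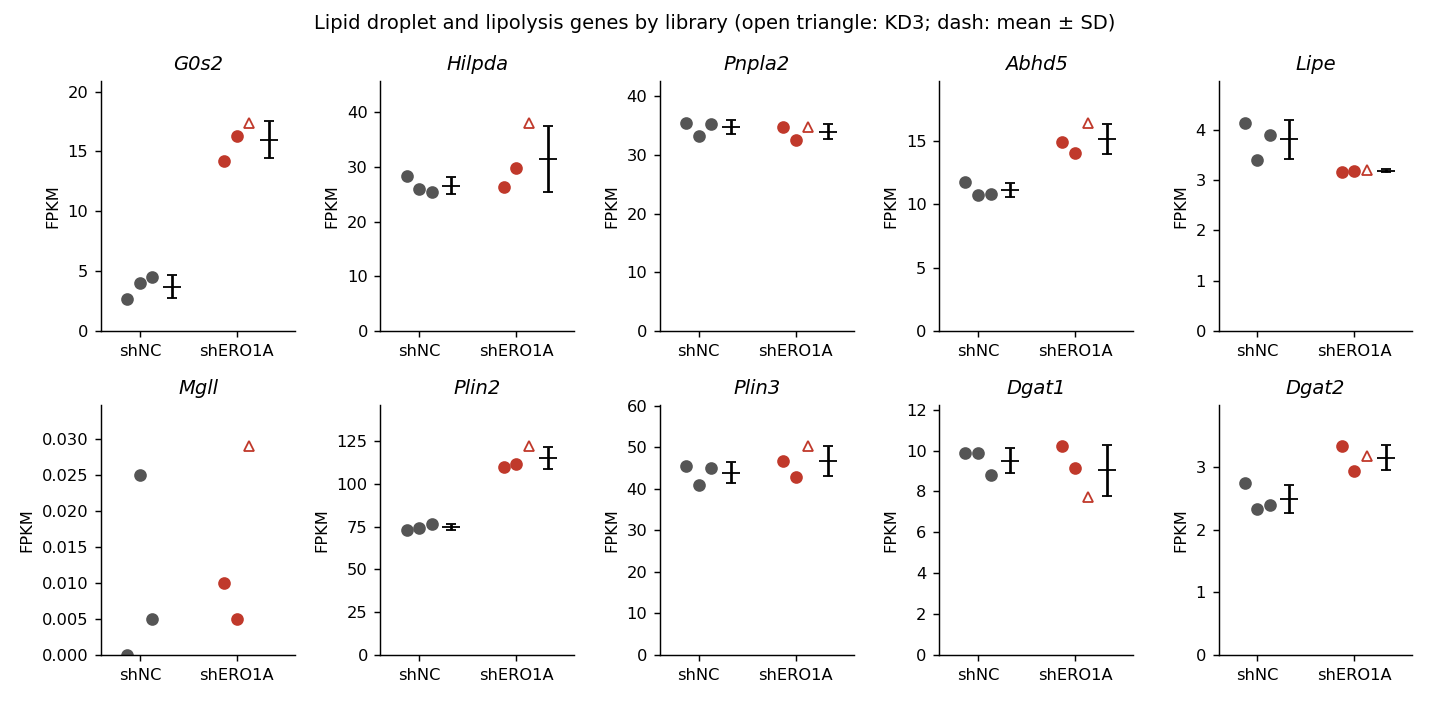
Level in FPKM (vertical axes, each from 0) of the 10 genes in the 3 shNC libraries (grey) and the 3 shERO1A libraries (red; KD3 as an open triangle); dashes with bars are the mean ± SD of a group, left out for Mgll, which rests on 0 to 6 reads. G0s2, Abhd5, Plin2 and Dgat2 are higher in each shERO1A library than in any shNC library, Lipe is lower in each, and Hilpda is high in KD3.

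Further down the pathway, Lipe (Entrez 16890), the hormone-sensitive lipase that acts on diacylglycerol, was slightly lower. It had levels of 4.14, 3.39 and 3.90 FPKM under the control hairpin, against 3.17, 3.19 and 3.21 FPKM under shERO1A. All knockdown libraries lay below all control libraries, but by little, and the fit did not call it. The ratio was 0.837, and the log2 difference was -0.20 (95% interval -0.37 to -0.03). Mgll (Entrez 23945), the monoacylglycerol lipase that would release the last fatty acid, had 0, 5 and 1 reads in shNC and 2, 1 and 6 reads in KD1, KD2 and KD3. At 0 to 0.029 FPKM it was hardly measured in either line, and no direction can be read. The count of 0 in shNC replicate 1 has a 95% exact Poisson interval of 0 to 3.69 reads, where 3 reads would be 0.0148 FPKM.

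The droplet coats differed from each other. Plin2 (Entrez 11520), the perilipin that covers droplets in most tissues other than fat, had levels of 73.3, 74.2 and 76.5 FPKM under the control hairpin, against 109.9, 112 and 122 FPKM under shERO1A. The control libraries were close together, and each knockdown library lay well above them. The mean went from 74.7 ± 1.66 to 115 ± 6.43 FPKM (SD, n = 3; log2 difference 0.61, SE 0.05), and without KD3 the ratio was 1.48. Plin3 (Entrez 66905), a perilipin that moves between cytosol and young droplets, had levels of 45.5, 41.0 and 45.1 FPKM under the control hairpin, against 46.8, 42.9 and 50.2 FPKM under shERO1A. The groups overlapped, with a log2 difference of 0.09 (95% interval -0.07 to 0.24) that was 0.03 without KD3.

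Of the acyltransferases that complete triglyceride, Dgat1 overlapped between the groups and Dgat2 did not. Dgat1 (Entrez 13350), which re-esterifies fatty acids in the endoplasmic reticulum, had levels of 9.87, 9.86 and 8.82 FPKM under the control hairpin and reached 10.2, 9.13 and 7.74 FPKM in the libraries KD1, KD2 and KD3. KD3 had the lowest level and KD1 the highest of the 6 libraries. The log2 difference was -0.07 (95% interval -0.29 to 0.15), and it was 0.02 without KD3. Dgat2 (Entrez 67800), which works on droplets and with newly made fatty acids, had levels of 2.74, 2.33 and 2.40 FPKM under the control hairpin, against 3.33, 2.94 and 3.18 FPKM under shERO1A, with no overlap. The ratio of Dgat2 was 1.26, with and without KD3. Its log2 difference of 0.25 (SE 0.07), on a scale that understates the change of low genes, was not called by the fit. Among the 12 alternatives it was called only after quantile normalization. Dgat2 rested on 201 to 288 reads per library.

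**Figure D2:**
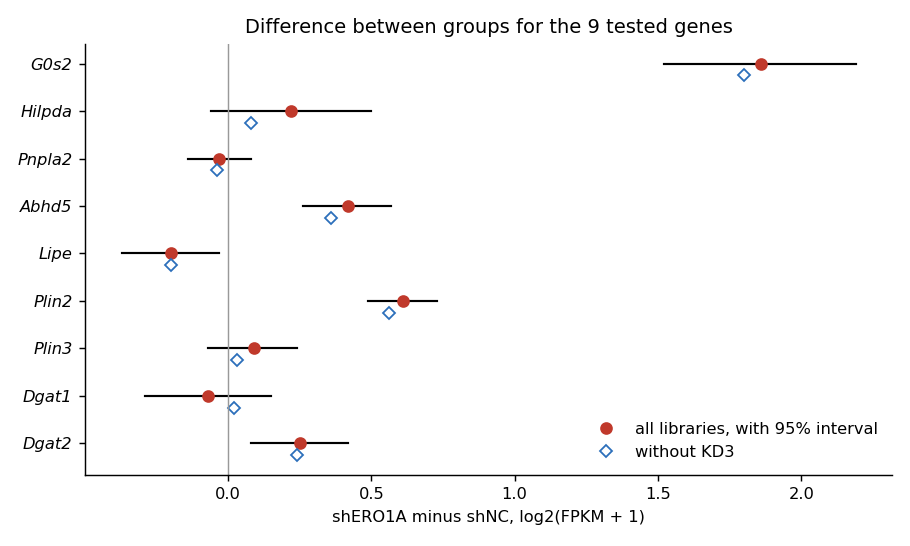
Difference between shERO1A and shNC in log2(FPKM + 1) (horizontal axis) for the 9 tested genes; filled circles use all libraries, with bars for the 95% interval of the fit, and open diamonds leave out KD3. G0s2 lies at 1.86, Plin2 at 0.61 and Abhd5 at 0.42, and the interval of Pnpla2 lies between -0.14 and 0.08.

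KD3 held the highest knockdown level in 6 of the 9 tested members, beside 42.1% of all genes tested. It held the lowest level only in Dgat1, or 1 of 9, beside 41.6% of all genes tested. Without it, the log2 differences of Hilpda, Plin3 and Dgat1 were 0.08, 0.03 and 0.02, the nearest to 0 in absolute size along with that of Pnpla2 (-0.04).

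Promoter sequence is printed for G0s2 and Abhd5, the inhibitor and the activator of ATGL, which were both higher, so that their upstream regions can be compared. That of Plin2 is not printed, because its window overlaps the annotated gene. Each line holds 220 bases, from -250 to -31 relative to the RefSeq start site on the gene's own strand, in build GRCm38.p6, which is not the build named for the deposited table. The G0s2 stretch is chr1:193273219-193273438 (minus strand) and that of Abhd5 is chr9:122351366-122351585 (plus strand). Capitals mark the letters GCGTG, a core to which hypoxia-inducible factors can bind, on either strand (read CACGC where it lies on the opposite strand).
G0s2: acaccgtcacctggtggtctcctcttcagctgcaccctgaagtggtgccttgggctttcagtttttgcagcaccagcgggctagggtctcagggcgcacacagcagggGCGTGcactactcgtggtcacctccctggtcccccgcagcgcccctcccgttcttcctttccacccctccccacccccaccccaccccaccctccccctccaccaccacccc
Abhd5: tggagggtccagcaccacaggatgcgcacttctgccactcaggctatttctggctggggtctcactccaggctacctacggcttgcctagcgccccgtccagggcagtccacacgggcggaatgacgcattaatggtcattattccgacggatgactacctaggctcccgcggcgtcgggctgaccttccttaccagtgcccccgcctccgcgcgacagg
G0s2 held 1 match, at -142 to -138, Plin2 held 1 on the opposite strand, at -86 to -82, and the Abhd5 stretch held none. Over all 32851 promoters of the RefSeq table, 25.1% held GCGTG in this window, so a match is common. Of the 8 members with an entry in the table, 5 held it in at least 1 promoter (G0s2, Plin2, Hilpda, Lipe and Mgll). The core ACGTG was found in Hilpda, Lipe and Mgll, beside 14.4% of all promoters, and in Lipe and in 1 of the Mgll promoters it lay within the E-box CACGTG, found in 5.01% of all promoters. The letters TGACGTCA (cAMP response), the direct repeat of AGGTCA with 1 base between, and TATAAA were in no member's window and in 1.14%, 0.0304% and 9.95% of all promoters. Hilpda, Lipe and Mgll have more than 1 promoter in the table and so more sequence to match. A match is a description of the letters and not a site of binding.

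Levels can be set side by side in FPKM, which is per length. In shNC, mean levels ran from Plin2 (74.7) through Plin3 (43.9), Pnpla2 (34.7), Hilpda (26.6), Abhd5 (11.1) and Dgat1 (9.51) to Lipe (3.81), G0s2 (3.73), Dgat2 (2.49) and Mgll (0.01). Neighbours in this order did not overlap in range, except Lipe with G0s2 and G0s2 with Dgat2. In shERO1A, G0s2 moved from the eighth place to the fifth, at the level of Abhd5, and the ranges of these genes overlapped. The ranges of Pnpla2 and Hilpda overlapped there too, as did those of Lipe and Dgat2.

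The balance of inhibitor and lipase transcripts was read within each library as a ratio of FPKM. The ratio of G0s2 to Pnpla2 was 0.0758, 0.120 and 0.128 under the control hairpin, against 0.410, 0.499 and 0.500 in the 3 knockdown libraries. G0s2 transcript was thus below Pnpla2 transcript in every library and nearer to it in the knockdown line. The ratio of the activator Abhd5 to Pnpla2 was 0.319 ± 0.0119 in shNC and 0.444 ± 0.0242 in shERO1A (SD, n = 3). That of G0s2 to Abhd5, inhibitor over activator, was 0.340 ± 0.0979 in shNC and 1.06 ± 0.103 in shERO1A. G0s2 and Abhd5 were thus both higher relative to Pnpla2, G0s2 by more. The ratio of Hilpda to Pnpla2 overlapped between the groups, at 0.722 to 0.798 in shNC and 0.757 to 1.10 in shERO1A. The ratio of the coats, Plin2 to Plin3, was 1.61, 1.81 and 1.70 in shNC and 2.35, 2.60 and 2.43 in shERO1A, with no overlap. These ratios use the contrast by which the genes were chosen, and transcript levels do not give protein levels.

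**Figure D3:**
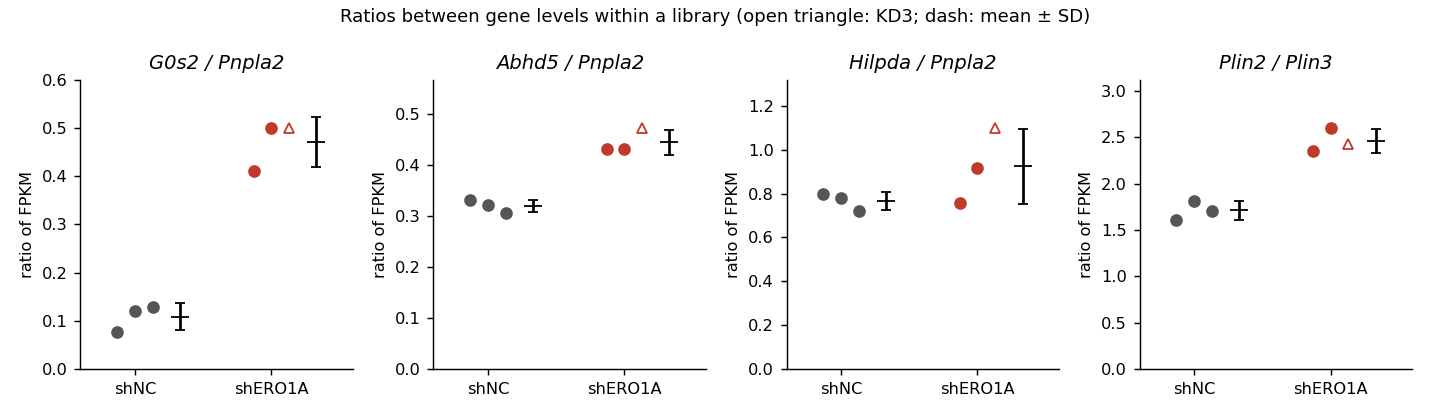
Ratio of FPKM between pairs of genes within a library (vertical axes, from 0), in shNC (grey) and shERO1A (red; KD3 as an open triangle), with the mean ± SD of each group. The ratio of G0s2 to Pnpla2 is at most 0.128 in shNC and at least 0.410 in shERO1A, while the ratio of Hilpda to Pnpla2 overlaps.

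The genes most like G0s2 were looked for among all tested genes other than unnamed genes and pseudogenes, by the root mean square difference between their log2(FPKM + 1) values, each taken from its shNC mean, over the 6 libraries. The nearest were Ccl4, a chemokine of T cells and monocytes (0.07), Inhba, the activin A subunit (0.21), Il11, a cytokine that signals through gp130 (0.25), and Uchl1, a deubiquitinase (0.25). This scale understates the change of low genes, so genes near on it can differ in ratio. Mean FPKM in shERO1A was 6.65, 4.29, 4.94 and 3.49 times that in shNC for these genes in turn, beside 4.28 times for G0s2. Ccl4 had 17, 26 and 32 reads in shNC, lowest in replicate 1 as for G0s2. In KD1, KD2 and KD3 it had 144, 174 and 185 reads. The likeness in shNC replicate 1 is part of the measure by which Ccl4 was picked, and no further result. Its shNC mean of 0.983 FPKM lay under the filter, which Ccl4 passed only through the knockdown libraries (mean 6.54 FPKM).

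Most other droplet genes did not pass the test. Of 24 tested genes of droplet formation and droplet proteins, 2 rose and 3 fell (limma adjusted p under 0.05), a share of 20.8% called beside 17.7% over all genes, with a median log2 difference of -0.05. Bscl2, which encodes seipin, the protein that organises droplet budding, fell from 6.70 ± 0.463 to 4.24 ± 0.553 FPKM (SD, n = 3; limma adjusted p = 0.00447). Hsd17b11, a droplet-bound dehydrogenase, fell from 13.3 ± 0.395 to 9.38 ± 1.29 FPKM, and Mettl7a1, a methyltransferase found on droplets, from 18.5 ± 1.09 to 13.6 ± 0.914 FPKM (limma adjusted p = 0.00964 and 0.00457). Rab18, a small GTPase of droplets, rose from 32.6 ± 1.34 to 38.2 ± 2.51 FPKM (adjusted p = 0.0392 with limma), a call lost with shNC replicate 1, 2 or 3 left out (adjusted p = 0.0703, 0.148 and 0.145), without KD1 (0.0763) and with no filter on low values (0.0604), over a range from 0.0203. The count of rises was 0 without any single shNC replicate or KD1, and 1 without KD2 or in the authors' deposited table. Fitm2, a protein of droplet budding, stood at 17.5 ± 0.633 and 18.6 ± 1.78 FPKM (log2 difference 0.08, 95% interval -0.08 to 0.24, and 0.01 without KD3). The perilipin gene Plin4 stood at 1.74 ± 0.0894 and 1.41 ± 0.380 FPKM (log2 difference -0.19, 95% interval -0.46 to 0.07, and -0.09 without KD3). Cidec, which fuses droplets in fat cells, was under the filter at 0.337, 0.476 and 0.399 FPKM in shNC and 0.831, 0.978 and 0.675 FPKM in shERO1A. These groups did not overlap, on 23 to 66 reads per library, and with no filter on low values Cidec was called higher (limma adjusted p = 0.0253). Plin5 is not among the genes analysed here.

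On the route from glycerol-3-phosphate to triglyceride, 1 of 17 tested genes rose and 3 fell, or 23.5%, with a median log2 difference of 0.01. Plpp3, a lipid phosphate phosphatase of the cell surface and inner membranes, rose from 13.2 ± 0.558 to 20.7 ± 0.546 FPKM (SD, n = 3; limma adjusted p = 0.000200). The acyltransferase gene Agpat5 fell from 16.9 ± 0.579 to 13.2 ± 0.211 FPKM (limma adjusted p = 0.00257). Lpin1, which encodes the phosphatidate phosphatase lipin 1, fell from 2.92 ± 0.0133 to 1.93 ± 0.282 FPKM, and Agpat4 from 7.92 ± 0.347 to 6.40 ± 0.527 FPKM. Their limma adjusted p-values were 0.0117 and 0.0307. The call of Lpin1 was lost with shNC replicate 1, 2 or 3 left out (adjusted p = 0.0520, 0.0529 and 0.0516; lowest 1.68e-05), and that of Agpat4 with shNC replicate 1, 2 or 3 left out (0.0750, 0.124 and 0.0986), without KD1 (0.0763) and with no filter (0.0566; lowest 0.0245). Without any single shNC replicate the count of falls was 1. Gpam, the mitochondrial enzyme of the first acylation, stood at 4.82 ± 0.396 and 4.34 ± 0.154 FPKM (log2 difference -0.12, 95% interval -0.28 to 0.04). Agpat2, the next acyltransferase, stood at 12.2 ± 0.674 and 9.33 ± 2.01 FPKM, with 9.42, 7.27 and 11.3 FPKM in KD1, KD2 and KD3. It was not called with all libraries (adjusted p = 0.0892) and was called lower without KD3 (log2 difference -0.51, adjusted p = 0.00432), over a range up to 0.248 (limma).

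Among other lipases and their partners, 2 of 18 tested genes rose and 3 fell, or 27.8%, with a median of 0.06. Pnpla7, a lysophospholipase of the same family as ATGL, rose from 2.94 ± 0.280 to 4.23 ± 0.127 FPKM (SD, n = 3; limma adjusted p = 0.00714). Angptl4, a secreted inhibitor of lipoprotein lipase, rose from 64.7 ± 2.71 to 79.0 ± 7.29 FPKM (adjusted p = 0.0309). Ddhd1, a phospholipase of phosphatidic acid, fell from 5.49 ± 0.238 to 4.10 ± 0.495 FPKM, and Abhd17c, a depalmitoylase, from 17.0 ± 1.17 to 14.2 ± 0.315 FPKM (limma adjusted p = 0.0238 and 0.0244). These last calls were fragile. That of Angptl4 was lost with shNC replicate 1, 2 or 3 left out (limma adjusted p = 0.0699, 0.109 and 0.128), without KD2 (0.0794) and with no filter (0.0570; lowest 0.00538). That of Ddhd1 was lost with shNC replicate 1, 2 or 3 left out (adjusted p = 0.0681, 0.0804 and 0.1) and with no filter (0.0519; lowest 0.00109). That of Abhd17c was lost with shNC replicate 1, 2 or 3 left out (adjusted p = 0.0566, 0.0584 and 0.0875), without KD1 (0.0572) and without KD2 (0.0802; lowest 0.0101). Rises numbered 1 without any single shNC replicate or KD2 and 4 without KD3, and falls 0 without any single shNC replicate and 1 without KD1 or KD2. With no filter, 1 rose and 1 fell. The share called over all genes moved as well. From 17.7% it went to 9.25% to 9.46% without 1 shNC replicate and 15.9%, 11.6% and 27.7% without KD1, KD2 and KD3. With no filter it was 10.5%. Pnpla3, a droplet lipase of hepatocytes, was hardly measured, with at most 12 reads in a library.

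Genes that bring fatty acids to the droplet went both ways. Of 13 tested genes of uptake, binding and activation, 3 rose and 3 fell, or 46.2%, with a median of -0.06; without KD3, and also after quantile normalization, 5 fell. Fabp5, a fatty acid-binding protein, fell from 5.47 ± 0.827 to 1.59 ± 0.674 FPKM (SD, n = 3; limma adjusted p = 0.00240), with 1.56, 0.928 and 2.28 FPKM in KD1, KD2 and KD3. Among the acyl-CoA synthetases, Acsl3, which sits on forming droplets, rose from 38.6 ± 0.941 to 58.0 ± 2.66 FPKM (limma adjusted p = 0.000231), while Acsl1 fell from 4.45 ± 0.257 to 2.89 ± 0.190 FPKM (adjusted p = 0.00262). Acsl3 thus stood at 1.5 times and Acsl1 at 0.650 times its control level. Cav1, which encodes the caveolar protein caveolin 1, rose from 3.75 ± 0.120 to 6.34 ± 0.214 FPKM, and the lipoprotein receptor gene Vldlr fell from 6.08 ± 0.0286 to 4.02 ± 0.285 FPKM (limma adjusted p = 0.000344 and 0.00153). The fatty acid transporter gene Cd36 is not among the genes analysed here.

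In sterol esterification and lipoprotein assembly, 0 of 8 tested genes rose and 1 fell by limma, or 12.5%, with 1 higher and 2 lower at an unadjusted p under 0.05. Voom called 0 higher and 1 lower, and the authors' deposited table gave 0 higher and 2 lower. Soat2, which makes cholesterol esters, fell from 8.80 ± 0.894 to 6.13 ± 0.812 FPKM (SD, n = 3; limma adjusted p = 0.0193), a call lost with shNC replicate 1 or 3 left out (0.0807 and 0.0832; lowest 0.00110), where the count of falls was 0. Without KD3, 1 rose and 2 fell. Mttp, which loads fat onto lipoproteins, was low, at 0.660 ± 0.0525 and 0.649 ± 0.244 FPKM.

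Of 19 tested regulators of the lipase step, 5 fell and 0 rose by limma, or 26.3%, with a median of -0.06; voom and the authors' deposited table also gave 0 rises, as did an unadjusted p under 0.05. Irs2 and Irs1, the insulin receptor substrates, fell from 3.61 ± 0.143 to 1.84 ± 0.161 FPKM and from 12.7 ± 0.248 to 9.54 ± 0.917 FPKM (SD, n = 3; limma adjusted p = 0.000549 and 0.00793). The transcription factor gene Cebpb fell from 25 ± 1.54 to 21.1 ± 0.968 FPKM (limma adjusted p = 0.0333). The call of Cebpb was lost with shNC replicate 1, 2 or 3 left out (limma adjusted p = 0.0976, 0.126 and 0.0569), without KD1 (0.0805), without KD2 (0.0993) and with no filter (0.0517; lowest 0.00600). Leaving out shNC replicate 1 or 3 or KD2 left 2 falls, leaving out shNC replicate 2 or KD1 left 3, and 1 gene rose without KD3.

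Neighbouring pathways set the droplet genes in context. Of 15 tested fatty acid synthesis genes, 8 fell and 0 rose by limma, or 53.3%, with a median of -0.26; an unadjusted p under 0.05, voom and the authors' deposited table also gave 0 rises, and falls numbered 5 without any single shNC replicate. Of 20 oxygen sensing and HIF target genes, 2 rose and 8 fell, or 50%, with a median of -0.17. There, rises numbered 0 without shNC replicate 1 or 2, and 1 without shNC replicate 3 or KD2 or after quantile normalization. Of 21 fatty acid oxidation and PPAR target genes, 2 rose and 2 fell, or 19.0%, with a median of 0.03; rises numbered 1 without any single library but KD3 and 4 without KD3. In the last list, Pparg, a nuclear receptor that drives fat storage, stood at 12.7 ± 0.837 and 14.6 ± 1.73 FPKM (log2 difference 0.18, 95% interval -0.02 to 0.38). The log2 difference of Pparg was 0.1 without KD3. Ppara is not among the genes analysed here. The difference between these groups and the droplet genes was not tested.

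**Figure D4:**
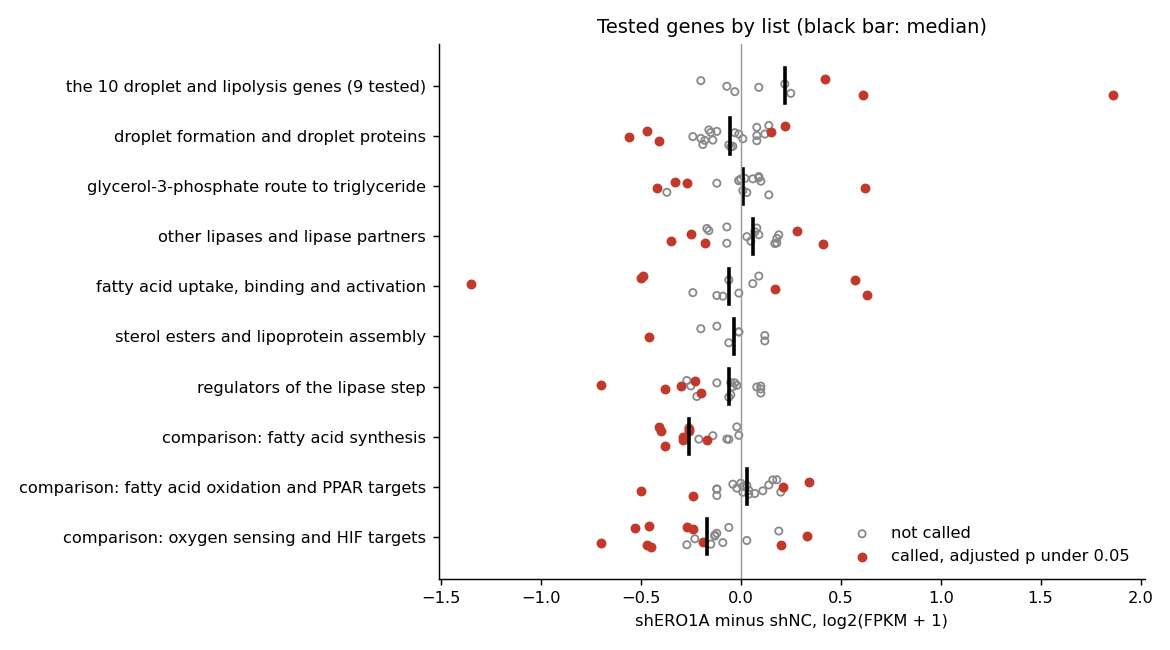
Difference between shERO1A and shNC in log2(FPKM + 1) (horizontal axis) of each tested gene, by list (rows); filled circles passed the limma adjusted p under 0.05, open circles did not, and black bars are medians. The medians of the lists around the droplet lie between -0.06 and 0.06, that of fatty acid synthesis at -0.26, and G0s2 lies at 1.86.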

How the data were processed

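RNA of 3 shNC and 3 shERO1A libraries was extracted with TRIzol, per the labels' protocols. The submitters' processing notes name HISAT2 2.1.0, HTSeq 0.11.2 and mm39; annotation and strand setting: not given in the sources used here. A table deposited by the authors holds 16217 genes and 1 FPKM column per library, a unit found from the values, since the header gives none. Per the file headers it also holds base means (a signal of counts over size factors, from DESeq2, version not given), a fold change as a ratio, a log2 fold change, and a p-value and q-value. The columns KD1 to KD3 name the knockdown group but no sample title, so no library was paired.

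Read counts were recovered from the FPKM and base means: 100% of 97302 values lay within 0.01 of a whole number. Libraries were compared by chi-square over genes with at least 20 reads in a pair. The fit used limma 3.58.1 (R 4.3.3) with an intensity trend on log2(FPKM + 1), a minimum mean level of 1 FPKM, and Benjamini-Hochberg adjustment. Both steps were tested on simulated data. The recovery returned 100% of simulated reads. The fit called 28 of 50 genes changed 1.25-fold, 49 of 50 changed 1.5-fold and 50 of 50 changed 2-fold or 4-fold, with 6 false calls. Small changes can thus go uncalled. The simulated spread was taken from the shNC libraries, so the departure of KD3 was not covered. Alternatives were a pseudocount of 0.1, no filter, a filter of 10 reads in 3 libraries, quantile normalization, voom on recovered reads, the authors' table and leaving out each library.

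The members and lists were chosen with earlier results of these data known. Genes named are the members; Ero1a; up to 4 called genes of largest change per list around the droplet; Pparg, Ppara, Gpam, Agpat2, Lpin1, Fitm2, Bscl2, Plin4, Plin5, Cidec, Cd36, Acsl1, Mttp and Pnpla3 whatever their test; and the 4 genes nearest G0s2. A gene that this rule names among the regulators is not reported here. Promoters are from RefSeq (GRCm38.p6); 8 of 10 members matched.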

Additional observations from a re-analysis of the deposited data

How the results depend on the processing

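Over 12 alternatives, 41 named genes gave 492 values, of which 450 kept their direction and side of the threshold, 40 lost the call, 2 gained one (Dgat2 and Agpat2) and 0 reversed. Of 108 values of the 9 tested members, 107 kept their side. Over all genes, 976 were called higher and 847 lower. Leaving out 1 shNC library gave 482 to 492 higher and 460 to 484 lower, and leaving out 1 knockdown library 617 to 1521 and 577 to 1332. Members called higher numbered 3 and lower 0 whichever library was left out. As the set was chosen with this contrast known, the values and counts of members are a description. The ranges of calls over libraries left out, higher and lower, were 0 to 2 and 3 to 4 for droplet proteins, 1 to 1 and 1 to 4 for the glycerol-3-phosphate route, 1 to 4 and 0 to 3 for other lipases, 2 to 3 and 3 to 5 for fatty acid uptake, 0 to 1 and 0 to 2 for sterol esters, and 0 to 1 and 2 to 7 for regulators. For the neighbouring pathways they were 0 to 0 and 5 to 11 for fatty acid synthesis, 1 to 4 and 2 to 3 for fatty acid oxidation, and 0 to 3 and 6 to 12 for HIF targets. Among the other settings, the authors' deposited table gave 1 rise among droplet proteins and 2 falls among sterol esters, no filter gave 1 rise and 1 fall among other lipases, and quantile normalization gave 5 falls in fatty acid uptake and 1 rise among HIF targets. The cause was not tested. The planned quasi-likelihood count test was not run, because the deposited unit is FPKM. No paired analysis was possible because the knockdown columns carry no replicate number of a sample title. Depth limits Mgll and Pnpla3, at 0 to 12 reads per library.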

Other observations

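The deposited table's own annotation marks 83 genes as located at the lipid droplet, 7 of them among the 10 genes described above. This group was taken up after the data had been seen and gets no test of its own. It shares called genes with the lists above, among them Acsl3, Cav1, Rab18 and Bscl2, so its counts are not separate from theirs. Of the 65 other annotated genes at a mean level of 1 FPKM or more, 9 were higher and 6 lower in shERO1A by the limma fit over all genes, or 23.1% beside 17.7%, with a median log2 difference of -0.02. Without KD3 the numbers were 12 and 10, where 27.7% of all genes tested were called. Ckap4 and Rsad2 were among the higher genes and Anxa2 and Lss among the lower ones, named after their values were seen, and the call of Anxa2 was lost under some alternatives (limma adjusted p up to 0.0927). Rsad2, an interferon-induced protein that resides at droplets and the endoplasmic reticulum, and Lss, the cyclase of cholesterol synthesis, belong to other pathways as well.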
